A study of Homo sapiens with 6 samples.

Results

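Asparagine, proline, glutamine, alanine, aspartate and cysteine are amino acids that human cells can make for themselves, and the 8 genes described here encode enzymes of these routes: *ASNS*, *ALDH18A1*, *PYCR1*, *GPT2*, *CTH*, *CBS*, *GOT1* and *GLUL*. They were taken by symbol from a table of 46427 genes, in which each of the 8 symbols had 1 row. Of the 8 genes, 7 passed the filter on low counts that left 18366 genes for testing, and *CBS* did not. RNA was sequenced from HCT116, a human colon carcinoma cell line, as 3 cultures of parental cells with wild type *ZKSCAN3* (*ZK3*-WT) and 3 cultures of cells with both alleles of *ZKSCAN3* mutated by CRISPR/Cas9 aimed at exon 1 (*ZK3*-KO). All cultures were grown in DMEM with fetal bovine serum. The *ZK3*-KO cells came from single-cell selection under puromycin, so properties of the selected clone and of the mutation cannot be told apart.

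Cells build these amino acids from a few precursors. Glutamine synthetase (GLUL) adds ammonia to glutamate, asparagine synthetase (ASNS) moves the amide group of glutamine onto aspartate, and the transaminases GOT1 and GPT2 exchange amino groups between glutamate and aspartate or alanine. ALDH18A1 starts the route from glutamate to proline and PYCR1 completes it, while CBS and CTH carry sulfur from homocysteine to cysteine. Standard DMEM holds no asparagine, aspartate, alanine or proline. Several of these genes, *ASNS* above all, are known targets of ATF4, a transcription factor whose synthesis increases when cells lack amino acids or have stressed mitochondria or endoplasmic reticulum.

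Values of single libraries are listed in the order of replicates 1, 2 and 3 throughout. Between 60827060 and 69739215 reads were counted per library. *ZKSCAN3* itself was counted at 19.8 to 28.1 CPM (reads scaled to a common total by TMM-normalized library sizes) in *ZK3*-WT libraries and 13.6 to 25.4 CPM in *ZK3*-KO libraries, which gave a log2 fold change of -0.16 (FDR 0.797 by edgeR's quasi-likelihood method), so its read number did not separate the genotypes. A change in exon 1 need not alter the number of reads, and the table holds no value at the edited site. *ZK3*-KO replicate 3 stood apart from its group. Across genes, its log2 CPM had a correlation of 0.953 and 0.938 with *ZK3*-KO replicates 1 and 2, against 0.978 between these 2 libraries and 0.978 to 0.984 among *ZK3*-WT libraries. Of 10 colon epithelial markers, 8 passed the filter, whereas *VIL1* had at most 7 reads and *CDX1* had none in any library. Their summed level was 3101 to 3904 CPM in *ZK3*-WT and 2795 to 5616 CPM in *ZK3*-KO libraries, with the highest sum in replicate 3. The leukocyte genes *PTPRC* and *CD3E* had no reads, and 11 markers of other cell types summed to 46.0 to 59.4 CPM in *ZK3*-WT and 33.8 to 102 CPM in *ZK3*-KO libraries, nearly all of it from *COL1A1*, named with its values in view. In bulk RNA fewer cells with a transcript and less of it per cell cannot be told apart.

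None of the 7 tested enzyme genes passed an FDR of 0.05 between the genotypes in edgeR's quasi-likelihood test. Their unadjusted p-values were all above 0.05, and DESeq2 called none of them, where it called 8.2% of all genes. Over all 18366 genes, 2.05% passed in edgeR's test (0.817% higher and 1.23% lower in *ZK3*-KO cells), and 18.4% reached an unadjusted p of 0.05. The groups of all 7 genes overlapped, whereas those of 26.6% of tested genes did not. The median log2 fold change of the 7 genes was 0.05, beside 0.02 over all tested genes. The 7 genes differed from one another in how much they varied between cultures of 1 genotype, most of all among the *ZK3*-KO cultures. When *ZK3*-KO replicate 3 was left out, 1 of the 7 genes passed, *GPT2*, where 15.1% of the 18872 genes then tested did (7.41% higher and 7.73% lower in *ZK3*-KO cells). No enzyme gene passed without *ZK3*-KO replicate 2, where 0.835% of genes did, or with the replicate number as a block, where 2.51% did.

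**Figure D1:**
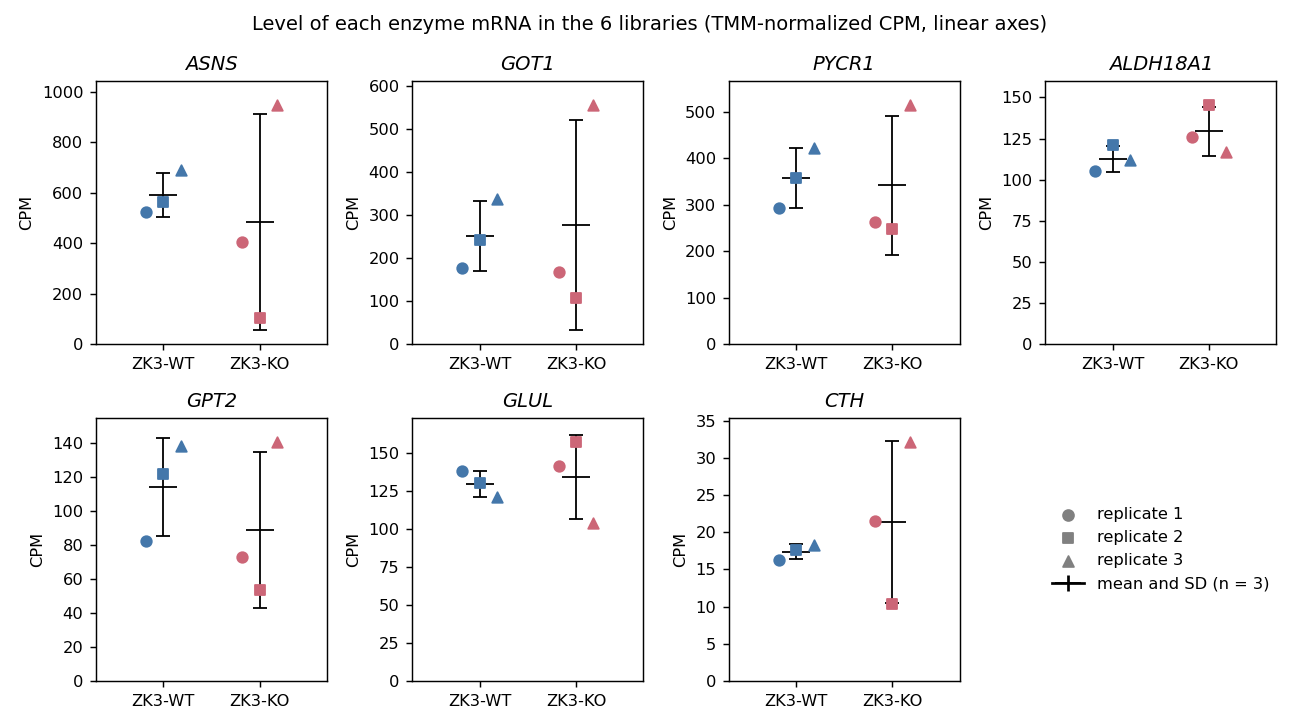
CPM (vertical axes, linear, from 0, a separate scale for each gene) of the 7 tested enzyme genes in 3 *ZK3*-WT and 3 *ZK3*-KO libraries (horizontal axes). Points are libraries with a shape for each replicate number, and bars are mean and SD (n = 3). *ASNS* spanned 104 to 948 CPM among *ZK3*-KO libraries and 524 to 688 CPM among *ZK3*-WT libraries.

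*ASNS* (NCBI Gene 440), which makes asparagine, is a reverse-strand gene of chromosome 7 (97480989 to 97501854 on GRCh37, the build of all gene positions given here). The parental cultures had 524, 562 and 688 CPM, and the knockout cultures 404, 104 and 948 CPM. The *ZK3*-KO libraries thus lay on both sides of the *ZK3*-WT libraries, with replicates 1 and 2 below all of them and replicate 3 above. The group means of 591 ± 86.0 and 485 ± 428 CPM (SD, n = 3 each) overlapped widely. A log2 fold change of -0.29 (SE 0.65, FDR 0.852 by edgeR) was within the spread of the replicates. This became -1.22 (FDR 0.0994) without *ZK3*-KO replicate 3 and 0.19 (FDR 0.824) without *ZK3*-KO replicate 2, so its sign rested on which culture was kept. With the replicate number as a block it was -0.75 (FDR 0.450). The highest *ZK3*-KO library exceeded the lowest 9.13-fold, and 96.7% of tested genes spread less among these libraries. Among *ZK3*-WT libraries the same ratio was 1.31, and 50.1% of genes spread less.

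The sequence upstream of *ASNS* is shown because it holds the letters of the C/EBP-ATF response element through which ATF4 is known to act on this gene. The motif was searched as TGATGNAA, or TTNCATCA on the other strand, in RefSeq windows of 300 bases (250 before and 50 after each annotated start, GRCh38.p14). In the 250 bases before 1 of 2 annotated starts of *ASNS*, at chr7:97872409-97872658 on the reverse strand, the match (in capitals) began 68 bases before the start:
ASNS: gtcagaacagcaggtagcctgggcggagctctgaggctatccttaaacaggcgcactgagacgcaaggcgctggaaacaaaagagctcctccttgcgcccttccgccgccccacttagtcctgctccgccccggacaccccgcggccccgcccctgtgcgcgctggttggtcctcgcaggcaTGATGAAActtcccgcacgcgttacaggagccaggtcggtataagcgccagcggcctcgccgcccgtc
*GOT1* was the other enzyme gene with a match, which is read on the opposite strand and began 198 bases before the start, at chr10:99430625-99430874 on the reverse strand:
GOT1: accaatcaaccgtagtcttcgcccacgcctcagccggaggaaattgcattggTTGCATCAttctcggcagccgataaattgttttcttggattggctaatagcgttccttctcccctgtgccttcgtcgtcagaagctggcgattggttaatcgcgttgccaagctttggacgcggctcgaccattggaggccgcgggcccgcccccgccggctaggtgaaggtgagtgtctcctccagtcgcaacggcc
Windows were matched for 6 of the 8 genes (*ASNS*, *ALDH18A1*, *CTH*, *CBS*, *GOT1* and *GLUL*), and 2 of their 10 windows held the motif. It was found in 3.62% of all 35116 windows. These letters describe the sequence and do not show that a factor was bound.

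*GOT1* (NCBI Gene 2805), the cytosolic aspartate transaminase on chromosome 10 (101156627 to 101190381, reverse strand), had the next widest spread. It was counted at 176, 241 and 337 CPM in parental and at 167, 107 and 555 CPM in knockout cultures. As for *ASNS*, *ZK3*-KO replicate 2 was the lowest and replicate 3 the highest of the 6 libraries. The means were 251 ± 80.9 and 276 ± 243 CPM (SD, n = 3 each), and their log2 ratio in the fit was 0.14 (SE 0.58 and FDR 0.929 by edgeR). It was -0.88 (FDR 0.0659) without *ZK3*-KO replicate 3, and without replicate 2 it was 0.52 (FDR 0.642). It was -0.17 (FDR 0.804) with the replicate block. The *ZK3*-KO libraries differed 5.20-fold, more than for 94.1% of tested genes.

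The mitochondrial counterpart *GOT2* went the other way across the *ZK3*-KO cultures. It was counted at 139, 129 and 129 CPM in parental and at 168, 208 and 144 CPM in knockout cultures. Here *ZK3*-KO replicate 2 was the highest and replicate 3 the lowest of its group, and all 3 libraries were above all *ZK3*-WT libraries. The groups of 26.6% of tested genes did not overlap. The log2 fold change of *GOT2* was 0.39 (SE 0.17 and FDR 0.285 by edgeR), and it was 0.52 (FDR 0.0355) without *ZK3*-KO replicate 3. Of 11 genes of asparagine and aspartate metabolism, 8 were tested. None passed with all libraries, 1 had an unadjusted p-value under 0.05, and the median log2 fold change was 0.06. Without *ZK3*-KO replicate 3, *GOT2* and *ASRGL1*, which hydrolyses asparagine (0.80, FDR 0.0135), were higher and *ASS1*, which joins aspartate to citrulline (-1.16, FDR 0.0113), was lower in *ZK3*-KO cells. In that fit 15.1% of all tested genes passed, 7.41% as higher and 7.73% as lower. *ASRGL1* and *ASS1* were picked with their values in view.

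The enzymes at the ends of the proline route, *ALDH18A1* and *PYCR1*, did not share an order of libraries. *PYCR1* (NCBI Gene 5831, chromosome 17 from 79890260 to 79900288, reverse strand) was counted at 293, 358 and 422 CPM in parental and at 263, 248 and 515 CPM in knockout cultures. Again *ZK3*-KO replicates 1 and 2 lay below all *ZK3*-WT libraries and replicate 3 above them. The means were 358 ± 64.3 and 342 ± 150 CPM (SD, n = 3 each), and the log2 fold change was -0.07 (SE 0.31 and FDR 0.937 by edgeR). Leaving out *ZK3*-KO replicate 3 gave -0.48 (FDR 0.0849), and leaving out replicate 2 gave 0.12 (FDR 0.882).

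*ALDH18A1* (NCBI Gene 5832, chromosome 10 from 97365698 to 97416468, reverse strand), which commits glutamate to proline, was the steadiest of the 7 genes. It was counted at 105, 121 and 112 CPM in parental and at 126, 145 and 117 CPM in knockout cultures. Here *ZK3*-KO replicate 3 was the lowest of its group and in CPM fell among the *ZK3*-WT libraries, while replicates 1 and 2 were above them. In the authors' TPM values, which are scaled by transcript length, *ZK3*-KO replicate 3 had 57.8, below the 63.5 to 75.2 of *ZK3*-WT libraries. The means were 113 ± 7.84 and 129 ± 14.7 CPM (SD, n = 3 each), and their log2 ratio in the fit was 0.20 (SE 0.15 and FDR 0.522 by edgeR). It kept its sign in all 14 alternative fits, with values from 0.09 to 0.27. Only 7.85% of tested genes had a lower estimated variation between replicates.

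Of 8 proline genes, 7 were tested and none passed with all libraries. *ALDH4A1* and *PRODH*, which break proline down, had log2 fold changes of 0.55 (FDR 0.158) and 0.52 (FDR 0.472) in edgeR's test. *ALDH4A1* was counted at 18.7 to 23.6 CPM in *ZK3*-WT and 25.5 to 32.8 CPM in *ZK3*-KO libraries. These did not overlap, like the groups of 26.6% of tested genes. *ALDH4A1* and *PRODH* passed without *ZK3*-KO replicate 3, at 0.67 (FDR 0.0210) and 0.80 (FDR 0.0490), where 7.41% of all tested genes passed as higher. The reductase *PYCR3* and *OAT*, which links proline with ornithine, had log2 fold changes of -0.11 and -0.20 (FDR 0.840 and 0.725).

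*GPT2* (NCBI Gene 84706), the mitochondrial alanine transaminase on chromosome 16 (46918274 to 46965201, forward strand), was counted at 82.7, 122 and 138 CPM in parental and at 72.8, 53.6 and 141 CPM in knockout cultures. *ZK3*-KO replicates 1 and 2 were below all *ZK3*-WT libraries, and replicate 3 was level with the highest of them. The means were 114 ± 28.6 and 89.1 ± 45.9 CPM (SD, n = 3 each), and their log2 ratio in the fit was -0.36 (SE 0.37 and FDR 0.653 by edgeR). *GPT2* was the gene that passed without *ZK3*-KO replicate 3, where it was lower in *ZK3*-KO cells by a log2 fold change of -0.85 (SE 0.23, FDR 0.0394). Over the 14 alternatives its FDR reached 0.915, and its sign stayed negative. The cytosolic enzyme *GPT* was near the limit of counting, with 0.442 to 0.815 CPM in *ZK3*-WT and 0.388 to 1.65 CPM in *ZK3*-KO libraries (FDR 0.685).

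*GLUL* (NCBI Gene 2752, chromosome 1 from 182347233 to 182361341, reverse strand), the glutamine synthetase, ran opposite to *ASNS* and *GOT1*. It was counted at 138, 130 and 121 CPM in parental and at 141, 157 and 104 CPM in knockout cultures. In CPM *ZK3*-KO replicate 2 was the highest and replicate 3 the lowest of the 6 libraries. In TPM, the authors' values scaled by transcript length, *ZK3*-WT replicate 1 was the highest at 45.5, beside 43.7 in *ZK3*-KO replicate 2. The means of 130 ± 8.47 and 134 ± 27.5 CPM (SD, n = 3 each) differed by a log2 fold change of 0.05 (SE 0.18 and FDR 0.919 by edgeR). *GLUD1*, glutamate dehydrogenase, had a log2 fold change of 0.05 (FDR 0.885).

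None of the 6 tested genes of glutamine, glutamate and alanine metabolism passed with all libraries, and none had an unadjusted p-value under 0.05. The same held for 9 glutamine amidotransferases, which use the amide of glutamine as ASNS does. With *ZK3*-KO replicate 3 left out, *PFAS* of purine synthesis (0.89, FDR 0.00846) and *CAD* of pyrimidine synthesis (0.64, FDR 0.0201) were higher in *ZK3*-KO cells, as were 7.41% of all tested genes. *PFAS* and *CAD* were named with their values in view.

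Of the cysteine route, *CTH* (NCBI Gene 1491, chromosome 1 from 70876901 to 70905534, forward strand), which releases cysteine from cystathionine, was counted at 16.2, 17.7 and 18.2 CPM in parental and at 21.5, 10.4 and 32.2 CPM in knockout cultures. The *ZK3*-WT libraries lay close together, and the *ZK3*-KO libraries fell on both sides of them. The ratio of highest to lowest library was 1.12 in *ZK3*-WT and 3.10 in *ZK3*-KO cells. Among knockout libraries 86.6% of tested genes spread less. The log2 fold change was 0.30 (SE 0.36 and FDR 0.716 by edgeR), -0.12 (FDR 0.797) without *ZK3*-KO replicate 3 and 0.63 (FDR 0.250) without replicate 2.

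*CBS* (NCBI Gene 875, chromosome 21 from 44473301 to 44497053, reverse strand), the enzyme before CTH, was almost without reads. It had 4, 2 and 8 reads in parental and 2, 4 and 3 reads in knockout cultures. The exact 95% Poisson interval was 0.242 to 7.22 for 2 reads and 3.45 to 15.8 for 8 reads, so no difference was detectable at these read numbers. The table also lists *CBSL*, a near-identical copy, with 2 to 8 reads per library, and reads of the pair cannot be assigned to 1 copy. Another near-identical pair of chromosome 21, *U2AF1* and *U2AF1L5*, which encodes a splicing factor, had 4124 to 5844 and 4193 to 5926 reads per library. The *U2AF1* pair was chosen after the values were seen and does not show how reads of *CBS* were assigned. How many reads of *CBS* the counting retained was not tested, and the level of *CBS* is uncertain for that reason.

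A list of 23 genes of the methionine cycle, transsulfuration and cysteine use held 19 tested genes, of which none passed, although 2 reached an unadjusted p of 0.05. Their median log2 fold change was 0.02. *MAT1A*, an S-adenosylmethionine synthetase, was closest to the threshold with 1.43, 3.11 and 2.00 CPM in parental and 0.326, 0.692 and 0.453 CPM in knockout cultures. The difference of -2.15 on the log2 scale had an SE of 0.42 and an FDR of 0.0543 by edgeR, and with the replicate block the FDR was 0.0215. When *ZK3*-KO replicate 3 was left out, 3 of the 19 genes passed, all lower in *ZK3*-KO cells. Of all tested genes 15.1% then passed, 7.73% as lower. The 3 genes were *MAT1A*, the persulfide dioxygenase *ETHE1* (-0.61, FDR 0.0201) and the sulfurtransferase *TST* (-0.55, FDR 0.0383). The choice of these names followed a look at their values.

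Levels of different genes were compared as TPM, which the authors scaled by transcript length. In *ZK3*-WT cells the order of mean TPM was *ASNS* (523 ± 73.0), *PYCR1* (358 ± 64.8), *GOT1* (268 ± 85.7), *ALDH18A1* (69.1 ± 5.87), *GPT2* (60.0 ± 15.3), *GLUL* (40.0 ± 4.81) and *CTH* (11.4 ± 0.703; SD, n = 3 each). The libraries of *PYCR1* and *GOT1*, of *ALDH18A1* and *GPT2*, and of *GPT2* and *GLUL* overlapped. *PYCR1* was above *GOT1* within each of the 3 *ZK3*-WT libraries, whereas the other two pairs changed order between libraries. The order of the means was the same in *ZK3*-KO cells, from 370 ± 289 TPM for *ASNS* to 12.5 ± 4.48 TPM for *CTH* (SD, n = 3 each). Single *ZK3*-KO cultures departed from it. In replicate 2, *ASNS* had 90.1 TPM, level with *ALDH18A1* at 88.1 TPM and below *PYCR1* at 244 TPM, whereas in replicate 3 *ASNS* had 667 TPM and *ALDH18A1* had 57.8 TPM.

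The enzyme genes fell into a set of 5 and a pair by the order of their libraries. *ASNS*, *GOT1*, *PYCR1*, *GPT2* and *CTH* all had replicate 2 lowest, replicate 1 between and replicate 3 highest among *ZK3*-KO libraries, an order that 27.8% of tested genes had. In CPM the same 5 genes had replicate 3 highest and replicate 2 lowest of all 6 libraries, as did 10.8% of tested genes. In TPM, *ZK3*-KO replicate 3 was below *ZK3*-WT replicate 3 for *PYCR1* (404 and 420 TPM) and *GPT2* (58.8 and 72.0 TPM). *GLUL* and *ALDH18A1* had the reverse order among *ZK3*-KO libraries, as did 26.6% of tested genes. These orders were seen in the data and were not tested. Among libraries of equal replicate number, deviations across genes were most alike for number 3 (r = 0.390) and least for number 2 (0.102). In CPM *ZK3*-WT replicate 3 was the highest *ZK3*-WT library of the 5 genes.

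**Figure D2:**
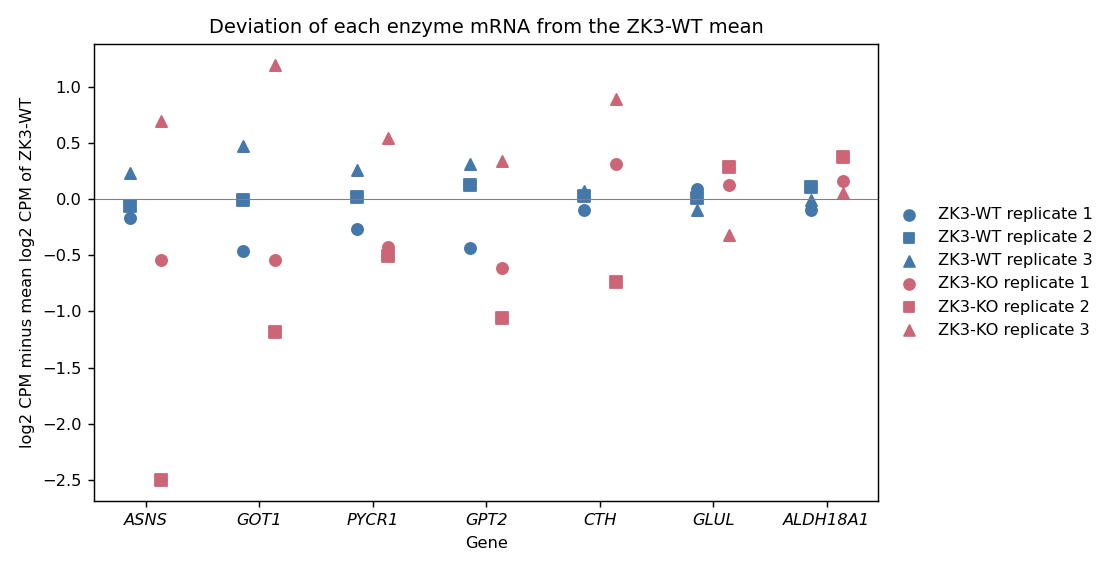
Log2 CPM of each tested enzyme gene (horizontal axis) minus its mean log2 CPM in *ZK3*-WT cells (vertical axis, log2 units). Points are single libraries, coloured by genotype and shaped by replicate number. *ASNS* lay at -2.50 in *ZK3*-KO replicate 2 and 0.69 in replicate 3, while *GLUL* lay at 0.28 and -0.32.

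Relative to the *ZK3*-WT mean, *ZK3*-KO replicate 2 was lower by log2 values of -2.50 for *ASNS*, -1.18 for *GOT1*, -1.06 for *GPT2*, -0.74 for *CTH* and -0.51 for *PYCR1*. *ZK3*-KO replicate 3 was at 0.69, 1.19, 0.34, 0.89 and 0.54 for the same genes. *ASNS* thus deviated most in replicate 2 and *GOT1* in replicate 3, and the extent differed between genes within a culture. *ZK3*-KO replicate 1 was at -0.54 for *ASNS* and *GOT1*, -0.62 for *GPT2* and -0.43 for *PYCR1*, but at 0.31 for *CTH*. Each library held between 720 and 58561 reads of a tested gene, so counting error was at most 3.73% of a value. The estimated variation between replicates (biological coefficient of variation in edgeR) was 54.1% for *ASNS*, 49.2% for *GOT1*, 32.8% for *CTH*, 32.6% for *GPT2*, 28.2% for *PYCR1*, 19.2% for *GLUL* and 16.8% for *ALDH18A1*, beside a median of 25.2% over all tested genes.

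**Figure D3:**
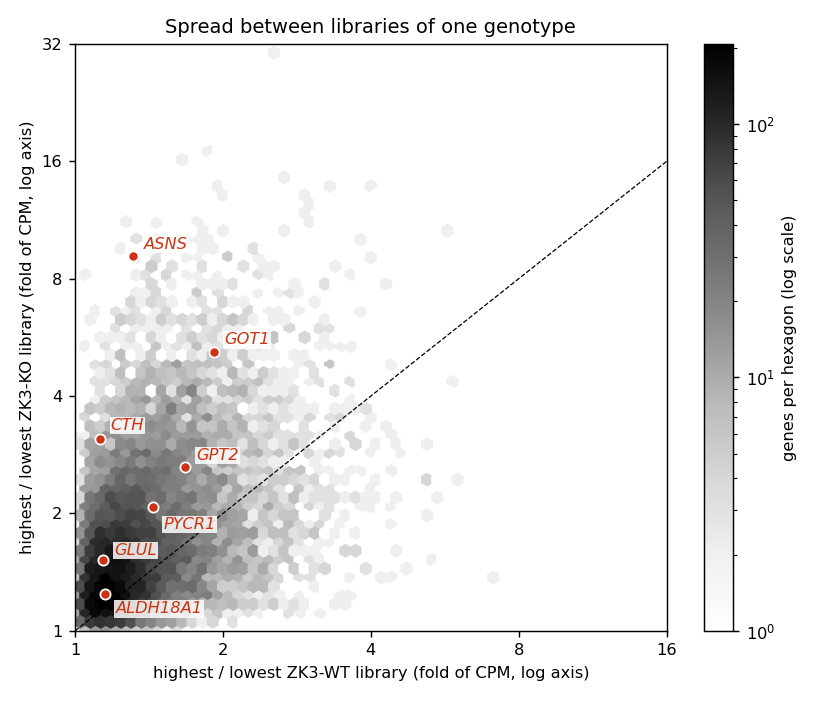
Ratio of the highest to the lowest library of *ZK3*-WT (horizontal axis) and of *ZK3*-KO cells (vertical axis), both as fold of CPM on log axes, with 17764 tested genes as grey hexagons shaded by number (log scale) and the 7 enzyme genes as red points. A further 602 genes lay outside the axes or had a library at 0. The dashed line marks equal spread, all 7 enzyme genes lie above it, and *ASNS* is the highest of them at 9.13-fold.

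The spread was wider among *ZK3*-KO than among *ZK3*-WT libraries for all 7 enzyme genes and for 72.7% of tested genes. The libraries of *ZK3*-KO cells differed at least 2-fold for 5 of the 7 genes and for 31.5% of tested genes. No enzyme gene had such a spread among *ZK3*-WT libraries, and 12.6% of tested genes did. The median ratio over all tested genes was 1.60 in *ZK3*-KO and 1.31 in *ZK3*-WT cells.

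Genes whose levels ran most like an enzyme gene were named by Pearson's r of log2 CPM over the 6 libraries, among 13148 other genes whose mean log2 CPM was 1 or more. With 6 points that share library and genotype, r is a description only, and 3.78% of genes reached 0.9 with *ASNS* and 7.35% with *GOT1*. Nearest to *ASNS* were *PCK2*, the mitochondrial phosphoenolpyruvate carboxykinase (r = 0.999), *ADAM32* (0.996) and *DDIT4*, an inhibitor of mTORC1 (0.995). Nearest to *GOT1* were *SLC7A5* and *SLC3A2* (r above 0.999 for both), the paired chains of a transporter of large neutral amino acids, followed by *BUD31* (0.999). *GPT2* was nearest to *STC2*, a secreted glycoprotein (0.998), *IER3* (0.998) and *TMEM150A* (0.998), and *PYCR1* to *MIR22HG* (0.999), *DUSP5* (0.997) and *YIPF2* (0.996). *CTH* was nearest to *KDM5B*, a histone demethylase (0.990), *FAM228B* (0.988) and *B3GNT9* (0.987).

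The pair of opposite order had other neighbours. *GLUL* was nearest to *MAPK14*, the p38 kinase (0.999), *SOD2* (0.996) and *HSPA12A* (0.996), and *ALDH18A1* to *PRMT6* (0.996), *TRMT10C* (0.993) and *C19orf47* (0.991). Among the enzyme genes, r was between 0.701 and 0.981 over the 10 pairs of the 5 genes and highest for *PYCR1* with *GOT1*. *GLUL* had r of -0.997 with *GOT1* and -0.971 with *PYCR1*.

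The ATF4 pathway was described with 18 of its regulators and feedback genes, all of which were tested. With all 6 libraries no regulator passed or reached an unadjusted p of 0.05, and 13 of 18 were below 0. The median log2 fold change of the 18 was -0.07, beside 0.02 over all tested genes. With the replicate block none passed either, where 2.51% of all tested genes did, and 16 were below 0. The median of the 18 with the block was -0.57, beside -0.01 over all tested genes. *ATF4* mRNA was counted at 594, 653 and 736 CPM in parental and at 575, 403 and 1063 CPM in knockout cultures (log2 fold change 0.04, FDR 0.964 by edgeR). It had the library order of *ASNS* with a smaller range.

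The stress-induced genes downstream of ATF4 ranged more widely in *ZK3*-KO cells. *DDIT3*, which encodes the transcription factor CHOP, was counted at 46.4, 106 and 124 CPM in parental and at 32.3, 6.33 and 237 CPM in knockout cultures. *TRIB3*, a pseudokinase that restrains ATF4, was counted at 164, 307 and 379 CPM and at 133, 50.4 and 464 CPM, and *CHAC1*, which degrades glutathione, at 40.7 to 104 CPM and at 40.6, 5.52 and 170 CPM. In all of them *ZK3*-KO replicate 2 was the lowest and replicate 3 the highest of the 6 libraries, and their log2 fold changes were -0.01, -0.39 and -0.02 (FDR 0.998, 0.814 and 0.994). The replicate block gave -1.04, -0.82 and -0.82 (FDR 0.548, 0.416 and 0.611). Without *ZK3*-KO replicate 3, 7 of the 18 genes passed, all lower in *ZK3*-KO cells, where 7.73% of all tested genes passed as lower, among them *DDIT3* (-2.26, FDR 0.0445) and *TRIB3* (-1.62, FDR 0.0385).

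A list of 14 further amino acid genes known as ATF4 targets, covering serine and folate enzymes and transporters, was counted in the same way. None passed with all libraries and 2 had an unadjusted p-value under 0.05, as did 18.4% of all tested genes. Of the 14, 11 were below and 3 above 0, with a median log2 fold change of -0.33, beside 0.02 over all tested genes. After leaving out *ZK3*-KO replicate 3 all 14 were below 0 and 7 passed as lower, beside 7.73% of all tested genes. The median of the 14 was then -0.79, beside -0.02 over all tested genes. All 14 had replicate 2 lowest, replicate 1 between and replicate 3 highest among the *ZK3*-KO libraries, an order of 27.8% of tested genes. In 9 of the 14, replicates 2 and 3 were also the lowest and the highest of all 6 libraries, as in 10.8% of tested genes. Set against the parental mean, their median lay at -0.58, -1.07 and 0.34 in the knockout cultures, while the ATF4 regulators were at -0.76, -1.71 and 0.74. The medians of the colon epithelial markers moved with them, at -0.36, -0.52 and 0.59, with the same library order in 6 of 8 tested markers. Without *ZK3*-KO replicate 3, *CLDN3* (-1.07, FDR 0.00755) and *CLDN4* (-1.02, FDR 0.00355), which encode tight junction proteins and were named with their values in view, were lower in the knockout. Of all tested genes, 7.73% passed as lower in that fit. There 7 of the 8 markers were below 0, and *EPCAM* was above it at 0.25 (FDR 0.187 by edgeR). With all libraries 5 markers were below and 3 above 0, with *EPCAM* at 0.37 (FDR 0.273 by edgeR). The part of these markers in the results was not tested. Of the 18 regulators, 11 reached an r of 0.9 with *GOT1* and 8 with *ASNS*, where 7.35% and 3.78% of all compared genes did. With *CTH* 1 regulator did and with *ALDH18A1* none, beside 1.77% and 1.69% of all compared genes.

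**Figure D4:**
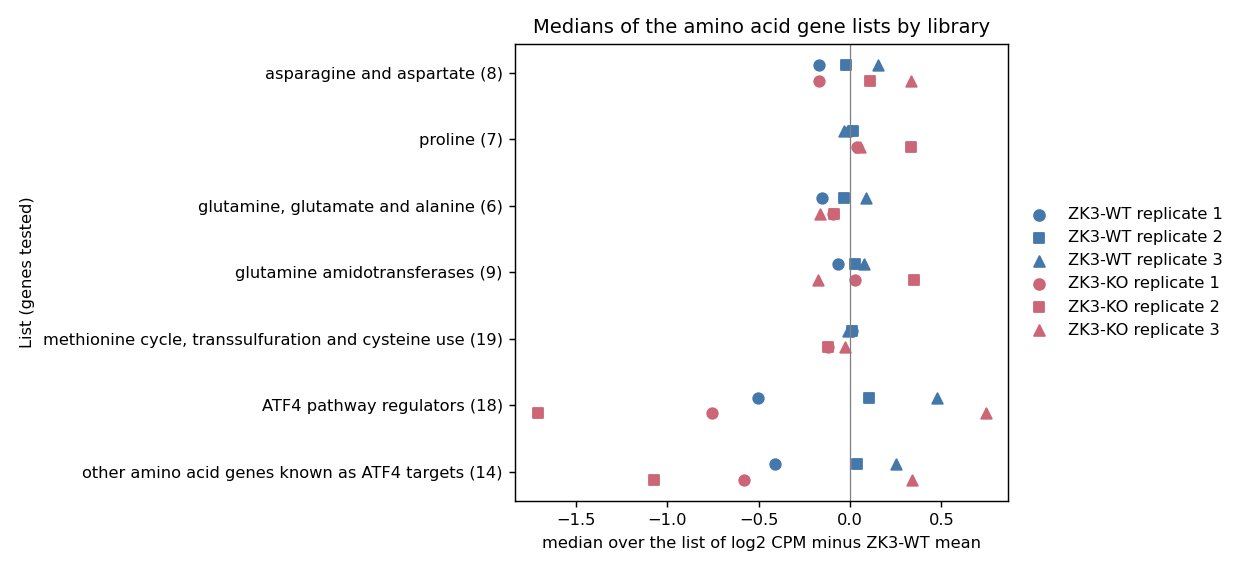
Median over each gene list (vertical axis, with the number of genes tested) of log2 CPM minus the *ZK3*-WT mean (horizontal axis, log2 units), with 1 point per library, coloured by genotype and shaped by replicate number. The ATF4 regulators spanned -1.71 to 0.74 among *ZK3*-KO libraries, whereas the methionine and cysteine list spanned -0.12 to -0.03.

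The lists of single metabolic routes hold genes that went both ways, so their medians are not comparable with the span of a single gene. Among *ZK3*-KO libraries the median of the asparagine and aspartate list lay between -0.17 and 0.34, that of the proline list between 0.04 and 0.34, that of the amidotransferases between -0.18 and 0.35 and that of the glutamine, glutamate and alanine list between -0.17 and -0.09.

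**Figure D5:**
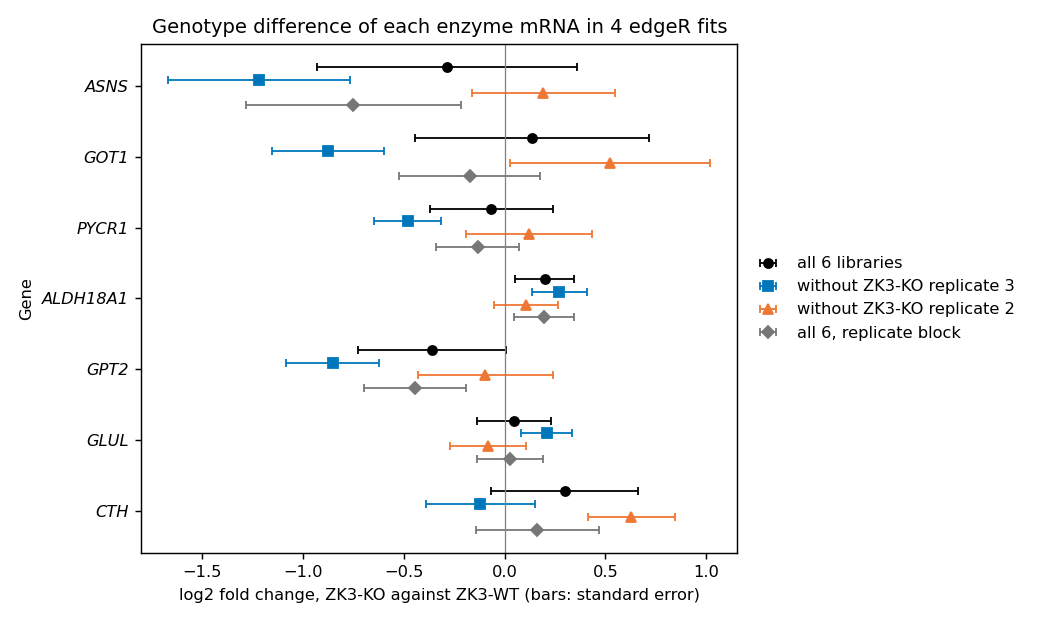
Log2 fold change of *ZK3*-KO against *ZK3*-WT cells (horizontal axis, bars are standard errors) for the 7 tested enzyme genes (vertical axis) in edgeR fits with all 6 libraries, without *ZK3*-KO replicate 3, without *ZK3*-KO replicate 2 and with the replicate number as a block. *ASNS* moved from -1.22 to 0.19 with the library left out, while *ALDH18A1* stayed between 0.11 and 0.27.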

How the data were processed

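The authors deposited 1 table with read counts per gene in each of 6 libraries, without normalization, beside FPKM and TPM values that the authors scaled by transcript length. Libraries were made from polyadenylated RNA with a stranded kit. The submitters' processing notes name Bowtie2 2.2.5 and hg19/GRCh37, whereas rows carry NCBI Gene numbers and name RefSeq transcripts. The deposited FPKM values were not used, and deposited TPM values served for levels between genes and 1 alternative.

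Counts were filtered with filterByExpr, normalized by TMM and compared with edgeR 4.0.16 (quasi-likelihood, R 4.3.3) with genotype as the only factor. P-values were adjusted over 18366 genes by the Benjamini-Hochberg method to an FDR with a threshold of 0.05. Alternatives used DESeq2 1.42.0, limma 3.58.1, other factors and filters, a replicate block and each library left out. Scripts were tested on simulated data. Deviations of libraries with equal replicate number had r over genes of 0.231 for number 1, 0.102 for number 2 and 0.390 for number 3. Between different numbers r was -0.297 to 0.183, so number 2 did not stand out. The sample titles state no pairing, and the number served as a block in an alternative only. No library was a copy of another. Poisson intervals cover counting error only. Gene positions are from GENCODE on GRCh37.

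The enzyme genes and lists were chosen with earlier results of these data known. Named genes were all 8 enzyme genes, list genes past the threshold with all libraries (none), isoenzymes and same-step partners, *ATF4*, *DDIT3*, *TRIB3*, *CHAC1*, *ZKSCAN3* and, for each enzyme gene, the 3 genes with the highest r. Other pathway genes are marked where named, and some partners are not reported here.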

Additional observations from a re-analysis of the deposited data

How the results depend on the processing

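Of the 7 tested enzyme genes, *ALDH18A1* kept its direction and its side of the threshold in all 14 alternatives, and *GPT2* kept its direction and passed in 1 of them. With each library left out in turn, log2 fold changes ranged from -1.22 to 0.19 for *ASNS*, -0.48 to 0.12 for *PYCR1*, -0.12 to 0.63 for *CTH*, -0.88 to 0.52 for *GOT1* and -0.082 to 0.21 for *GLUL*. They ranged from -0.29 to 0.086 for *ZKSCAN3*, -0.41 to 0.062 for *PYCR3*, -0.39 to 0.88 for *GPT*, -0.015 to 0.11 for *GLUD1*, -0.33 to 0.024 for *OAT*, -0.43 to 0.31 for *ATF4*, -2.26 to 0.55 for *DDIT3*, -1.62 to 0.076 for *TRIB3* and -1.67 to 0.52 for *CHAC1*. Calls over all genes ranged from 49 to 2858, with 49 without *ZK3*-WT replicate 2 and 2858 without *ZK3*-KO replicate 3, beside 376 with all libraries. Calls among enzyme genes ranged from 0 to 1, and so did those of the glutamine, glutamate and alanine list. They ranged from 0 to 3 for the asparagine and aspartate and the methionine and cysteine lists, 0 to 2 for proline genes and amidotransferases and 0 to 7 for both ATF4 lists, with the upper value without *ZK3*-KO replicate 3. DESeq2 called 1506 genes. *MAT1A* was the 1 gene of the methionine and cysteine list that passed with DESeq2, with library totals alone and with the replicate block. The block raised the calls over all genes to 461 and changed no enzyme gene's call. It turned *GOT1* to -0.17 and *ATF4* to -0.070, and moved *DDIT3* from -0.0048 to -1.04, *TRIB3* from -0.39 to -0.82 and *CHAC1* from -0.023 to -0.82, while limma on log2(TPM + 1) gave -1.33, -1.0 and -1.08. Library totals alone, which moved the median of all genes from 0.02 to -0.07, turned *GLUL* to -0.024, *GLUD1* to -0.029 and *ATF4* to -0.064. The same limma fit turned *GOT1* to -0.30, *GLUL* to -0.21 and *GLUD1* to -0.080, and upper-quartile factors moved *DDIT3* to 0.0011. The cause of these shifts was not tested. Few reads left *CBS* untested except in the fit without a filter, where none of the 8 enzyme genes passed.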

Other observations

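In *ZK3*-KO replicate 3, some of the 14 further ATF4 targets were above all *ZK3*-WT libraries in CPM, and *SLC7A11* and *ALDH1L2* were not. Some were above by little, such as *SLC6A9* and *PSAT1*, picked with their values in view. *SLC6A9* had 37.03 CPM beside 36.96 CPM in *ZK3*-WT replicate 3, and *PSAT1* had 580 CPM beside 563 CPM. Whether such genes were also above in TPM was not tested. *SLC7A11*, which imports cystine, the oxidized form of cysteine, had 221, 397 and 349 CPM in parental and 178, 75.2 and 212 CPM in knockout cultures (replicates 1, 2 and 3), so all *ZK3*-KO libraries lay below all *ZK3*-WT libraries. *ALDH1L2*, a mitochondrial folate enzyme, was counted at 16.3, 27.8 and 28.5 CPM and at 10.8, 3.94 and 15.6 CPM, again without overlap, as were the groups of 26.6% of tested genes. Their log2 fold changes were -1.05 (SE 0.39, FDR 0.219) and -1.26 (SE 0.47, FDR 0.221) in edgeR's test, which did not pass. Without *ZK3*-KO replicate 3 they were -1.34 (FDR 0.0380) and -1.71 (FDR 0.0260), where 7.73% of all tested genes passed as lower. Both genes were chosen after their values were seen.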
